A study of Mus musculus with 6 samples.

Results

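The mouse genes named Zfp and a number encode zinc finger proteins, and 292 of the 386 such rows of the table were expressed in RAW 264.7 cells, a mouse macrophage-like line. Members were selected on their level, by a CPM (reads of a gene scaled to the library's total) of at least 1 in at least 3 of the 6 libraries. The other 94 rows stayed below that level, and 41 of them were listed at 0 in all libraries. Poly(A) RNA came from cells with an APOBEC1 knockout (KO, 3 libraries) and from wild-type RAW 264.7 cells (WT, 3 libraries). Each library came from a separate plate of untreated cells. APOBEC1 is a cytidine deaminase that edits RNA, and the series compared editing calls between the genotypes. Neither the method of knockout nor the number of KO clones is given by the labels. Effects of the genotype cannot be told apart from other differences between the lines, and every p-value here rests on plate-to-plate spread alone.

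Most of these proteins bind DNA through tandem C2H2 fingers, short units in which paired cysteines and histidines hold a zinc ion. Many carry a KRAB domain, which recruits the corepressor TRIM28 and with it the histone methyltransferase SETDB1 to silence retroelements and other targets. KRAB zinc finger genes lie in clusters that arose by duplication, and a smaller number of Zfp proteins bind RNA, ribosomes or signalling proteins instead.

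The libraries held 59768682 to 70411383 counted reads in KO cells and 50493447 to 67392191 in WT cells, so that a read was worth 0.0142 to 0.0198 CPM. The ribosomal RNA precursor Rn45s took 0.542% to 1.40% of the reads in KO libraries and 0.381% to 2.75% in WT libraries. Apobec1 had 339, 340 and 361 CPM in KO cells, against 373, 431 and 396 CPM in WT cells. Its KO values all lay below its WT values, with a log2 fold change of -0.20 ± 0.07 (SE) that did not pass the limma test (Benjamini-Hochberg adjusted p = 0.0663). Of 10 macrophage markers listed, 9 were in the table and tested, and their summed level was 3561 to 4064 CPM in KO libraries and 3240 to 3514 CPM in WT libraries. Among those 9, Lyz2 and Spi1 were higher in KO cells and Adgre1, Fcgr1 and Mrc1 were lower (55.6% passed, against 30.4% of all tested genes). The 9 markers had a median log2 fold change of -0.07, with 6 below 0. The marker of lowest level had a mean of 0.803 CPM, at which a row can pass a rule of 1 CPM in 3 libraries through 1 genotype alone. The marker sums for B cells, fibroblasts, epithelial cells and neuronal or stem cells were at most 0.178 CPM in any library, and the T cell marker Cd3e was at 0 in all 6. The T cell list nevertheless summed to 6.32 to 7.21 CPM in KO libraries and 3.50 to 4.75 CPM in WT libraries, nearly all of it the kinase gene Lck.

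The members were mostly genes of low to moderate level. Their mean over the 6 libraries had a median of 12.2 CPM, with quartiles of 6.32 and 25.1 CPM and a range of 1.06 to 634 CPM. All tested genes, the 10614 rows that met the same level rule, had a median of 39.0 CPM. Of the members, 283 were at 1 CPM or more in every library and 9 were under 1 CPM in at least 1 library. The last members inside the rule were Zfp384 and Zfp433, whose third-highest libraries both stood at 1.05 CPM. Just outside it were Zfp33b at 0.909 CPM and Zfp457 at 0.861 CPM.

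Per kilobase of transcript, the most abundant members were Zfp207 at 141 CPM per kb (mean of 6 libraries), Zfp106 at 69.8, Zfp740 at 58.8, Zfp346 at 47.9 and Zfp330 at 47.5, against a median of 3.68 CPM per kb over all members. Zfp207, a spindle and kinetochore protein also known as BuGZ, had 230, 208 and 218 CPM in KO cells, against 187, 255 and 221 CPM in WT cells. Its values overlapped between the genotypes, with a log2 fold change of -0.01 (limma adjusted p = 0.976). Zfp638, a DNA-binding protein that silences unintegrated retroviral DNA, had 140, 119 and 160 CPM in KO cells, against 143, 217 and 183 CPM in WT cells. Its values overlapped too, at a log2 fold change of -0.36 that did not pass (limma adjusted p = 0.127). The other 2 of the 5 members with the highest CPM were Zfp706, a repressor of Klf4 in mouse embryonic stem cells, and Zfp451, a SUMO ligase. Neither passed the limma test, with log2 fold changes of 0.13 (adjusted p = 0.243) and 0.08 (adjusted p = 0.717).

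Translated from the longest GENCODE M21 coding sequence, 291 of the 292 members held a median of 10 C2H2 fingers, with a maximum of 36 in Zfp142. The search counted cysteine pairs 2 to 4 residues apart, 12 residues to the first histidine, and histidines 3 to 5 residues apart. A KRAB-like stretch (leucine, tyrosine, any residue, an acidic residue or asparagine, valine, methionine) was found in 132 members and not in 159. That pattern is narrow: Zfp445, a known KRAB protein, has no match. Members with the stretch had a median of 12 fingers and 9.56 CPM, and those without it 8 fingers and 15.4 CPM.

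The start regions of the members, 250 bases before and 50 bases after each annotated start, came from RefSeq (GRCm38.p6) for 251 of the 292. They held a median of 15 CG dinucleotides, compared with 22 for all tested genes with such a window and 7 for all windows of the RefSeq table. Members with a KRAB-like stretch had a median of 10 and those without it 18. The GC box GGGCGG, searched on both strands, was in 47.4% of the members' windows, 65.7% of those of all tested genes and 35.9% of all windows in the table. It contains a CG dinucleotide, so the counts are not separate measures. Below are 5 windows from members whose levels are described in the next paragraphs, with each CG dinucleotide in capitals. They are 3 members that were lower in KO cells, Zfp618 (chr4:62965317-62965616, plus strand), Zfp777 (chr6:48047745-48048044, minus strand) and Zfp746 (chr6:48086544-48086843, minus strand), and 2 that were higher, Zfp560 (chr9:20385109-20385408, minus strand) and Zfp111 (chr7:24208100-24208399, minus strand).
Zfp618: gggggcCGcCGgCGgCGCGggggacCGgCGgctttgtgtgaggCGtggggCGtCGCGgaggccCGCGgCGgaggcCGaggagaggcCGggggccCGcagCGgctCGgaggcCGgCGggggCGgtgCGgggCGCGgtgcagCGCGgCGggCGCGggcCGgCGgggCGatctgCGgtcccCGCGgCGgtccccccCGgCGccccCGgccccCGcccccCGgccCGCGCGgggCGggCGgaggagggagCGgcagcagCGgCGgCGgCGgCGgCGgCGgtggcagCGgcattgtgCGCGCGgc
Zfp777: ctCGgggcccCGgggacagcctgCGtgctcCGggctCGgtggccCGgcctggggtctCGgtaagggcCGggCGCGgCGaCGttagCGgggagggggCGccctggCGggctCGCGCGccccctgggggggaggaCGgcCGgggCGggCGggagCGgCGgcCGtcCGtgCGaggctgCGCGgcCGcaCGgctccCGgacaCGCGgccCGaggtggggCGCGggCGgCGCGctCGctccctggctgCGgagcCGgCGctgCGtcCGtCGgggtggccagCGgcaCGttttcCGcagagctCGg
Zfp746: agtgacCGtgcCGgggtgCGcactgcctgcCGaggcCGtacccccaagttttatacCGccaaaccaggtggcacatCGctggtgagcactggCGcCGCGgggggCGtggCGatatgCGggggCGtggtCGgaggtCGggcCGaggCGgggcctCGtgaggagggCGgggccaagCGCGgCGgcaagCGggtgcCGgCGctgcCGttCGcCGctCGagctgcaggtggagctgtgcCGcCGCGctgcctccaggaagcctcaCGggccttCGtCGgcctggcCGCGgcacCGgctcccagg
Zfp560: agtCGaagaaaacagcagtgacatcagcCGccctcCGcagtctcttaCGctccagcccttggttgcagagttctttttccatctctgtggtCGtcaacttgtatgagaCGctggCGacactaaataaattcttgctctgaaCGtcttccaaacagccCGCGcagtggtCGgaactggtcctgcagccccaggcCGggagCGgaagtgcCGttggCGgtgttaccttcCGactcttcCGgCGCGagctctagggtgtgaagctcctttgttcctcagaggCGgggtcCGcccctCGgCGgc
Zfp111: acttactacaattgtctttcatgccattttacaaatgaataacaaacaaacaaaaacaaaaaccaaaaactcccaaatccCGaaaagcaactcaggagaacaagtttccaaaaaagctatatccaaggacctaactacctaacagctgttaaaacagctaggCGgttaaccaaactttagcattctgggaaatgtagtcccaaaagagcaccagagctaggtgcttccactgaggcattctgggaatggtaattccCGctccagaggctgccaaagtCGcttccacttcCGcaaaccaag
The Zfp618 window held 59 CG dinucleotides, the Zfp777 window 51, the Zfp746 window 39, the Zfp560 window 23 and the Zfp111 window 5. All but that of Zfp111 contained the GC box. Members higher in KO cells had a median of 14 CG dinucleotides (quartiles 9 and 19) over the 9 with a window. Members lower in KO cells had 20 (quartiles 16 and 27) over the 25 with a window, and members that did not pass 14 over 217. All 5 windows printed lie outside the quartiles of their group, so they do not stand for the groups. The Zfp111 and Zfp777 windows lie at RefSeq starts inside the GENCODE spans of their genes, which end at 24211443 for Zfp111 and 48048911 for Zfp777.

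Expression in only 1 genotype was rare among the members, and where it occurred it was in WT cells. With presence set at 1 CPM or more in each library of a genotype and absence at under 1 CPM in each library of the other, 2 members were WT only and 0 were KO only. Over all tested genes, 195 were WT only and 42 KO only. Because the level rule used these same values, Zfp608 and Zfp618 are described here without a test.

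Zfp608, described in mouse thymocytes as a repressor of the Rag1 and Rag2 recombinase genes, had 0.0142, 0.0502 and 0.0450 CPM in KO cells, against 2.30, 2.76 and 2.09 CPM in WT cells. These were 1, 3 and 3 reads in the KO libraries, at or under the 3 reads that a count of 0 allows, and 116, 186 and 122 reads in the WT libraries. Pooled over libraries, the ratio of WT over KO was 67.6 (95% exact interval 32.5 to 169, which covers counting error only), from 7 reads in KO cells and 424 in WT cells. Zfp608 lies on chromosome 18 (mm10, 54888048 to 54992555, minus strand), where the genes Gm26742 and Gm4221 overlap it on the other strand. The use of strand in counting is not given, so their reads cannot be told apart from its own. In bulk RNA, fewer cells that express a gene and less RNA per cell cannot be told apart either.

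Zfp618, whose human counterpart binds the hydroxymethylcytosine reader UHRF2, had 0.753, 0.636 and 0.750 CPM in KO cells, against 2.50, 2.58 and 2.53 CPM in WT cells. Its KO level was lower but well above the floor, with 141 reads in KO cells and 448 in WT cells, a WT over KO ratio of 3.55 (95% exact interval 2.93 to 4.32, counting error only). With absence set at under 0.5 CPM instead, Zfp608 alone met the presence rule. Zfp618 lies on chromosome 4 (mm10, 62965573 to 63139708, plus strand), and its start region is the most CG-rich of those shown above.

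Across the family, 39 of the 292 members (13.4%) passed the limma test between KO and WT cells, adjusted over all 10614 tested genes, and more of these were lower than higher in KO cells, except after quantile normalization. Over all tested genes, 30.4% passed. Of the members, 10 (3.42%) were higher in KO cells, against 13.5% of all tested genes, and 29 (9.93%) were lower, against 16.9%. Without Zfp608 and Zfp618, which passed the level rule through the WT libraries alone, 37 of 290 passed, 10 higher and 27 lower. A change of at least 2-fold was reached by 4 of the 292 members, Zfp560, Zfp608, Zfp618 and Zfp692, against 392 of all 10614 tested genes (3.69%). Without Zfp608 and Zfp618 it was 2 of 290, while the share of all tested genes keeps genes of that kind. The KO and WT values did not overlap in 77 members (26.4%), or 75 of 290 (25.9%) without those 2, against 46.4% of all tested genes. The members' median log2 fold change was -0.05 (0.06 after quantile normalization and 0.04 without WT replicate 2), and that of all tested genes -0.02. The counts depended on single libraries: 18 members passed without KO replicate 1 and 24 without KO replicate 2, 6 were higher without KO replicate 3, 45 were lower without WT replicate 1, and 19 were higher without WT replicate 2. Of all tested genes, 18.6% passed without KO replicate 1 and 20.7% without KO replicate 2. Without KO replicate 3, 984 of all tested genes were higher. Without WT replicate 1, 2099 were lower, and without WT replicate 2, 1464 were higher (1436 higher and 1794 lower with all libraries). After quantile normalization 24 members were higher and 14 lower, whereas rescaling by TMM factors gave 13 and 27 and by DESeq2 size factors 12 and 27, and with no filter on low values 9 were higher and 17 lower.

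**Figure D1:**
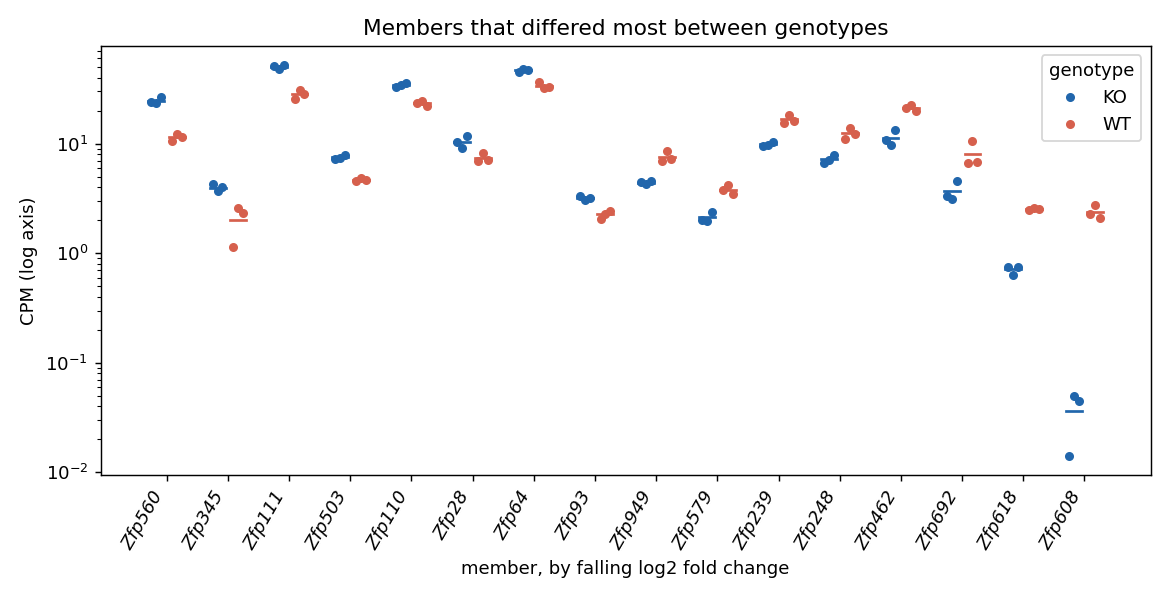
CPM on a log axis in each KO library (blue) and each WT library (red) for 16 members, the 8 largest changes in each direction among members that passed without overlap between genotypes, with a bar at each mean. The lack of overlap follows from that choice, and Zfp608 and Zfp618 are the 2 with all KO libraries under 1 CPM.

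Zfp560 rose most of the members in KO cells. It had 24.1, 23.5 and 26.5 CPM in KO cells, against 10.5, 12.2 and 11.6 CPM in WT cells. The lowest KO library stood well above the highest WT library, with a ratio of 2.16 and a log2 fold change of 1.08 ± 0.09 (SE, limma adjusted p = 9.07e-05). Zfp560 encodes 15 fingers and a KRAB-like stretch on chromosome 9 (mm10, 20345136 to 20385177, minus strand).

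Zfp111, another member with a KRAB-like stretch, had 50.8, 47.5 and 51.7 CPM in KO cells, against 25.7, 30.8 and 28.6 CPM in WT cells. The genotypes did not overlap, at a log2 fold change of 0.81 ± 0.08 (SE, limma adjusted p = 0.000318). Zfp110, also known as NRIF and a binding partner of the p75 neurotrophin receptor, had 33.2, 34.2 and 35.7 CPM in KO cells, against 23.3, 24.3 and 22.3 CPM in WT cells. It rose by a log2 fold change of 0.55 ± 0.07 (SE, limma adjusted p = 0.000928), and no library crossed between genotypes. Zfp503, a transcriptional corepressor of the developing striatum also known as Nolz1, had 7.24, 7.43 and 7.86 CPM in KO cells, against 4.54, 4.90 and 4.67 CPM in WT cells. It rose by 0.62 ± 0.08 on the log2 scale (SE, limma adjusted p = 0.00117), again with no overlap.

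Zfp64, a coactivator of NF-kappaB p65 in mouse macrophages after Toll-like receptor stimulation, had 44.8, 48.2 and 47.3 CPM in KO cells, against 36.5, 32.1 and 32.9 CPM in WT cells. Its genotypes were apart in all libraries, at a log2 fold change of 0.46 ± 0.07 (SE, limma adjusted p = 0.00280). Zfp345 had 4.25, 3.68 and 4.01 CPM in KO cells, against 1.13, 2.60 and 2.31 CPM in WT cells. Its change of 0.89 ± 0.23 on the log2 scale (SE, limma adjusted p = 0.0207) was the least even of the rises, with WT replicate 1 well below the other WT libraries, and 13.3% of its 75-base windows also occur in transcripts of other genes, chiefly Gm14139. Leaving out any KO library cost Zfp345 its call, at adjusted p values of 0.0512 to 0.0838. Zfp64 and Zfp345 both lie on chromosome 2, where 58.3% of all tested genes were higher in KO cells, with a median log2 fold change of 0.34. Zfp28, Zfp93 and Zfp516 rose by 0.47, 0.42 and 0.28 on the log2 scale (limma adjusted p = 0.0169, 0.0151 and 0.0340), and each lost its call when KO replicate 1 or KO replicate 3 was left out. Zfp28 and Zfp516 also lost it without WT replicate 3, and Zfp516 without KO replicate 2.

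Among the members lower in KO cells, Zfp692, whose human counterpart binds a response element of gluconeogenic genes, had 3.30, 3.15 and 4.56 CPM in KO cells, against 6.65, 10.6 and 6.80 CPM in WT cells. Every KO library lay below every WT library, and the log2 fold change was -1.02 ± 0.20 (SE, limma adjusted p = 0.00668). Zfp462, a chromatin protein with 33 fingers that acts with the H3K9 methyltransferases G9a and GLP in embryonic stem cells, had 10.8, 9.67 and 13.4 CPM in KO cells, against 21.1, 22.5 and 19.7 CPM in WT cells. It was lower in all KO libraries, at -0.88 ± 0.12 on the log2 scale (SE, limma adjusted p = 0.00129).

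Zfp239, also known as MOK2 and able to bind both DNA and RNA, had 9.61, 9.64 and 10.4 CPM in KO cells, against 15.5, 18.2 and 16.2 CPM in WT cells. Zfp248, which lies near it on chromosome 6, had 6.69, 7.13 and 7.82 CPM in KO cells, against 11.1, 13.9 and 12.2 CPM in WT cells. Both fell without overlap, by 0.72 ± 0.09 for Zfp239 (limma adjusted p = 0.000692) and by 0.74 ± 0.11 for Zfp248 (limma adjusted p = 0.00173) on the log2 scale (SE). Zfp579 had 2.03, 1.96 and 2.37 CPM in KO cells, against 3.74, 4.17 and 3.48 CPM in WT cells. Zfp949 had 4.43, 4.25 and 4.58 CPM in KO cells, against 6.89, 8.53 and 7.28 CPM in WT cells. Neither overlapped between genotypes, and both stood at a log2 fold change of -0.71 (limma adjusted p = 0.00220 for Zfp579 and 0.00158 for Zfp949). The other 21 members that fell had log2 fold changes from -0.60 to -0.26. None of the 29 that fell, nor of the 10 that rose, had overlapping genotypes.

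The share of members that passed is given here by finger count, without a test of the differences and beside 30.4% of all tested genes. Of 6 members with no finger by the pattern, 1 passed (16.7%). Of 37 members with 1 to 4 fingers, 8 passed (21.6%), or 6 of 35 (17.1%) without Zfp608 and Zfp618. Of 85 with 5 to 9 fingers 15 passed (17.6%), of 98 with 10 to 14 fingers 12 (12.2%), and of 65 with 15 or more fingers 3 (4.62%). Members with a KRAB-like stretch counted 4 higher and 7 lower of 132 (8.33%), with a median log2 fold change of -0.004 (0.15 after quantile normalization), and those without it 6 higher and 22 lower of 159 (17.6%, or 16.6% without Zfp608 and Zfp618), with a median of -0.08. Single WT libraries set the count for the first of these groups: 5 were higher and 21 lower without WT replicate 1, but 11 higher and 4 lower without WT replicate 2. Of all 10614 tested genes, 1662 were higher and 2099 lower without WT replicate 1, and 1464 higher and 1521 lower without WT replicate 2. The part of the spread between replicates in these shares was not tested. The within-genotype SD on the log2 scale had a median of 0.241 in members with the stretch and 0.147 in those without it, against 0.109 in all tested genes.

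The lower share of members passing was seen at every level of expression, as was the wider spread. At a mean of 1 to 5 CPM, 12 of 56 members passed (21.4%, against 43.2% of all tested genes at that level). These 12 include Zfp608 and Zfp618, which passed the level rule through the WT libraries alone, and the 43.2% keeps genes of that kind. At 10 CPM or more, a range without those 2 members, 17 of 173 passed (9.83%, against 27.6%). At 10 to 20 CPM 9 of 82 passed (11.0%, against 27.7%), and at 50 CPM or more 2 of 23 (8.70%, against 27.9%). The median within-genotype SD in those ranges was 0.174, 0.187 and 0.148 in the members, against 0.158, 0.115 and 0.0957 in all tested genes. No test of the difference between members and other genes was made.

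**Figure D2:**
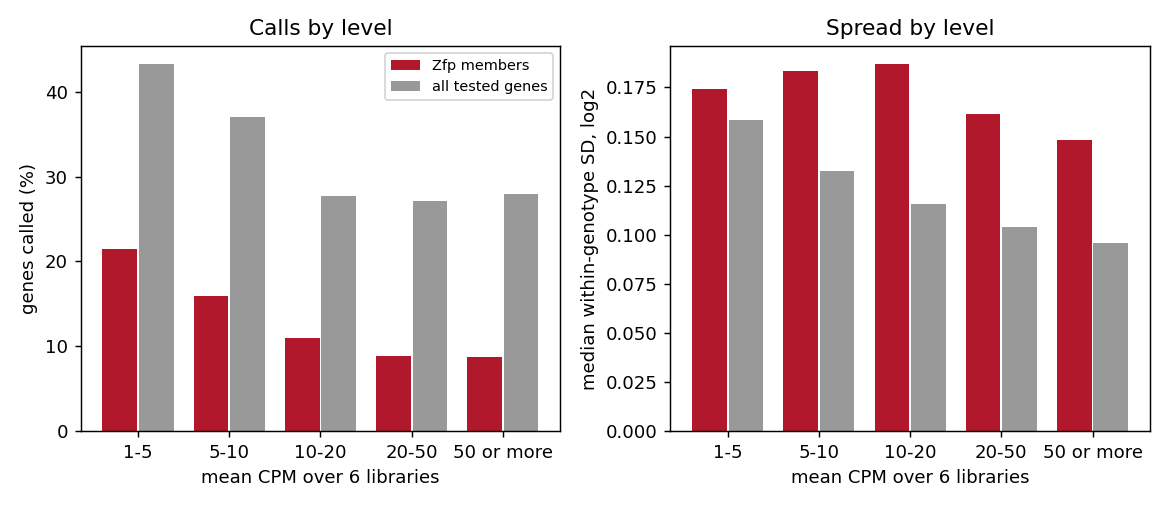
Left, the percentage of genes that passed the limma test and, right, the median within-genotype SD of log2(CPM + 0.5), for Zfp members (red) and all tested genes (grey) by mean CPM over the 6 libraries. Members passed less often and varied more between replicates in all 5 ranges of level, for example 11.0% against 27.7% and 0.187 against 0.115 at 10 to 20 CPM. The lowest range keeps Zfp608 and Zfp618, and other genes that passed the level rule through 1 genotype alone.

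Much of the spread among the members ran along with 2 WT libraries. The members' summed level was 6545, 6192 and 7087 CPM in KO libraries and 5811, 7485 and 6546 CPM in WT libraries, so that the means of 6608 ± 451 CPM in KO cells and 6614 ± 839 CPM in WT cells (SD, n = 3 each) differed by less than their spread. The WT libraries held both the lowest and the highest sum. WT replicate 2 was the highest of the 6 libraries for 173 members (59.2%, against 34.5% of all tested genes), and WT replicate 1 was the lowest for 138 (47.3%, against 26.7%). In members with a KRAB-like stretch the median deviation from the 6-library mean was 0.02, -0.10 and 0.09 in KO libraries and -0.28, 0.26 and 0.05 in WT libraries, while all tested genes stayed between -0.03 and 0.07. Rn45s took 2.75% of the reads in WT replicate 1 and 0.381% in WT replicate 2, the highest and lowest shares of the 6, and 2.43% in WT replicate 3. The part of Rn45s and of RNA quality in the members' spread was not tested.

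**Figure D3:**
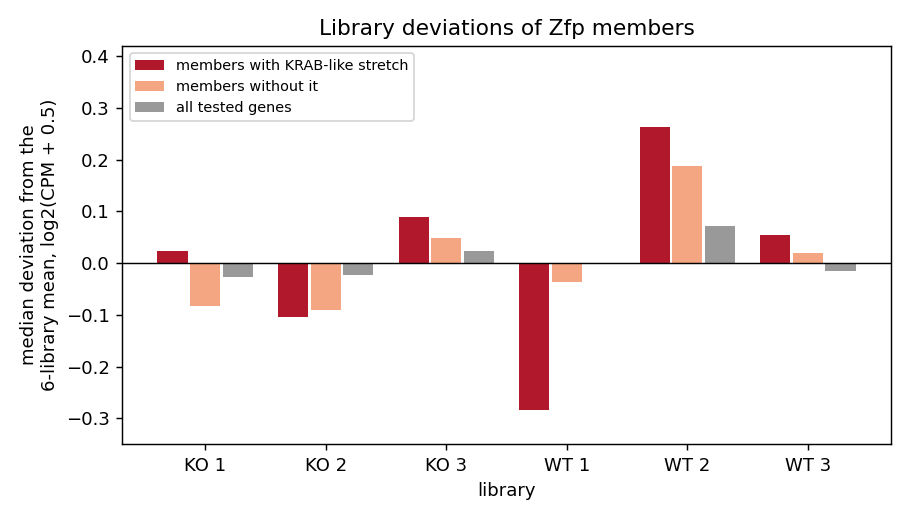
Median deviation of log2(CPM + 0.5) from each gene's mean over the 6 libraries, by library, for members with a KRAB-like stretch (dark red), members without it (light red) and all tested genes (grey). WT replicate 1 is lowest at -0.28 and WT replicate 2 highest at 0.26 for members with the stretch, and the KO libraries lie between.

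The same 2 WT libraries stood apart among the members on chromosomes 13 and 17, which carry large clusters of KRAB zinc finger genes and were chosen for description after their values were seen. The 36 members on chromosome 17, 31 of them with a KRAB-like stretch, had median deviations of 0.08, -0.13 and 0.11 in KO libraries and -0.51, 0.32 and 0.09 in WT libraries, and WT replicate 1 was the lowest library for 28 of them. For the 528 other tested genes of that chromosome it was the lowest for 85. The 29 members on chromosome 13 had median deviations of 0.13, -0.08 and 0.17 in KO libraries and -0.50, 0.24 and 0.06 in WT libraries, and WT replicate 1 was lowest for 25, compared with 138 of the 369 other tested genes there. Zfp758 on chromosome 17 varied most of all members, with 6.50, 4.18 and 6.27 CPM in KO cells, against 1.54, 5.56 and 5.12 CPM in WT cells. Zfp942, on the same chromosome, had 20.5, 16.1 and 23.1 CPM in KO cells, against 7.59, 24.5 and 20.7 CPM in WT cells. In both, WT replicate 1 alone was low and the genotypes otherwise overlapped. On chromosome 17, 1 of the 36 members passed the limma test, against 25.9% of all tested genes there, and on chromosome 13 it was 1 of 29, against 26.6%. Without WT replicate 1, 6 members on chromosome 17 and 4 on chromosome 13 were lower in KO cells, against 2099 of all 10614 tested genes. At the other end, Zfp772, Zfp839 and Zfp12 were the least variable, and Zfp12 stood at 28.3, 29.0 and 30.5 CPM in KO cells, against 32.2, 32.3 and 32.1 CPM in WT cells, apart in all libraries but not past the test (log2 fold change -0.14, limma adjusted p = 0.155).

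By chromosome, the members of chromosome 6 had the highest share lower in KO cells, 9 of 15 with 0 higher. Their median log2 fold change was -0.30, on a chromosome where 155 of all 520 tested genes were lower, 30 were higher and the median was -0.16. The targeted gene, Apobec1, also lies on chromosome 6 (mm10, 122577792 to 122602444, minus strand), and any link with these shifts was not tested. On chromosome 2 the members ran the other way, with 3 of 14 higher (Zfp106, Zfp64 and Zfp345), 0 lower and a median of 0.15. There, 503 of all 863 tested genes were higher in KO cells and the median log2 fold change was 0.34. Chromosome 7, with 79 members the largest holder, had 4 higher (5.06%) and 7 lower (8.86%), against 11.3% and 17.5% of its 804 tested genes. Under the other settings 3 to 9 of the chromosome 6 members were lower and 0 were higher. The choice of these chromosomes followed from the values, so no test was made of their difference from the rest.

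**Figure D4:**
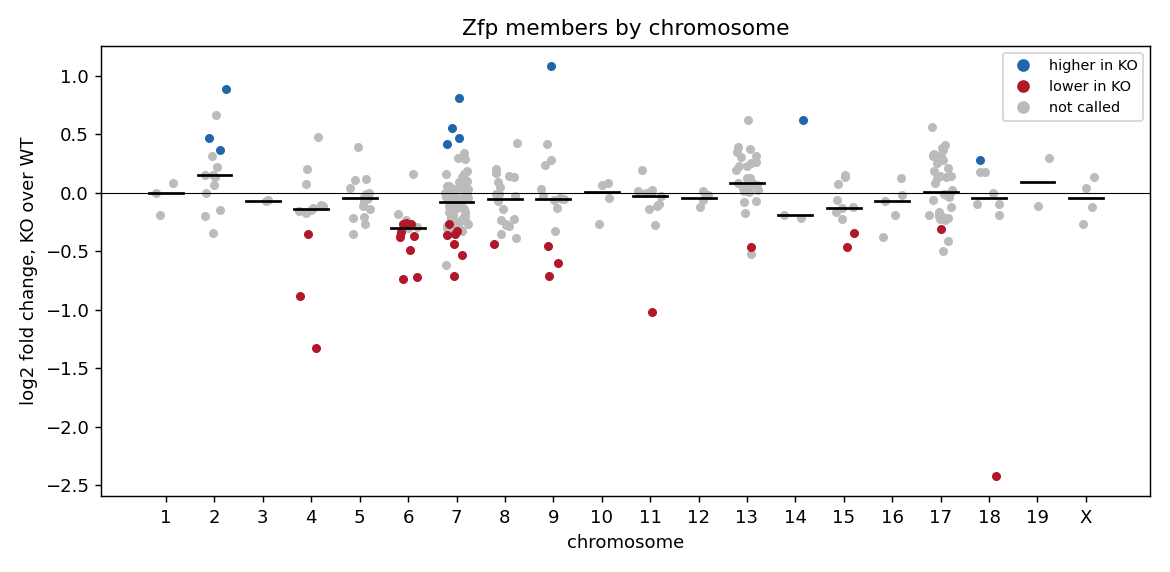
Log2 fold change, KO over WT, of each Zfp member by chromosome, with members higher in KO in blue, lower in red and those that did not pass in grey, and a black bar at each chromosome's median. The 15 members of chromosome 6 centre at -0.30, and the 14 of chromosome 2 at 0.15.

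Of the 15 chromosome 6 members, 8 lie in a run of zinc finger genes (chr6:47835661-48623227, mm10), chosen for description after its values were seen. From the proximal end they are Zfp398, Zfp282, Zfp212, Zfp956, Zfp777, Zfp746, Zfp467 and Zfp775. All 8 had negative log2 fold changes, from -0.49 to -0.18 with a median of -0.30, and 6 of them passed the limma test as lower. All 8 were below 0 under every other setting too, while the number that passed fell to 2 after quantile normalization, 1 with a replicate block, 1 without KO replicate 1, 2 without KO replicate 2, 3 without KO replicate 3 and 3 without WT replicate 2. Zfp777 had 27.4, 28.7 and 31.1 CPM in KO cells, against 40.1, 38.9 and 35.2 CPM in WT cells. Zfp746, the parkin substrate PARIS that represses PGC-1alpha, had 33.6, 32.8 and 35.1 CPM in KO cells, against 42.1, 41.5 and 38.8 CPM in WT cells. In both, every KO library lay below every WT library, with log2 fold changes of -0.38 ± 0.08 for Zfp777 (SE, limma adjusted p = 0.00995) and -0.27 ± 0.07 for Zfp746 (SE, limma adjusted p = 0.0203).

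Zfp467, which favours adipocyte over osteoblast fate, had 3.59, 4.17 and 3.72 CPM in KO cells, against 5.84, 5.77 and 5.12 CPM in WT cells. It fell by 0.49 ± 0.10 on the log2 scale (SE, limma adjusted p = 0.00751), the largest change of the 8 members, but did not pass after quantile normalization (adjusted p = 0.114). Zfp398 and Zfp282 did not pass, at log2 fold changes of -0.24 (limma adjusted p = 0.229) and -0.18 (limma adjusted p = 0.0912). The other tested genes in the run were also lower for 3 of 4, with the pseudogene Zfp862-ps at -0.63, Lrrc61 at -0.36 and the C2H2 gene Repin1 at -0.32 on the log2 scale, while Atp6v0e2 at -0.13 did not pass (limma adjusted p = 0.291).

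A run of 8 members on chromosome 7 (chr7:24081924-24316666, mm10) held 2 members that were higher and 1 that was lower in KO cells (3 and 0 after quantile normalization, 1 and 0 with a replicate block). Of all tested genes on that chromosome 28.9% passed, 11.3% higher and 17.5% lower, so these few calls do not set the run apart. Zfp111 and Zfp93 were higher in KO cells, at log2 fold changes of 0.81 and 0.42, and Zfp94, 5.23, 4.87 and 5.76 CPM in KO cells against 7.66, 7.30 and 6.97 CPM in WT cells, was lower, at -0.43 ± 0.09 (SE, limma adjusted p = 0.0103). The other 5, Zfp180, Zfp235, Zfp109, Zfp108 and Zfp61, had log2 fold changes from -0.32 to 0.06 and did not pass. This run was also chosen after its values were seen.

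**Figure D5:**
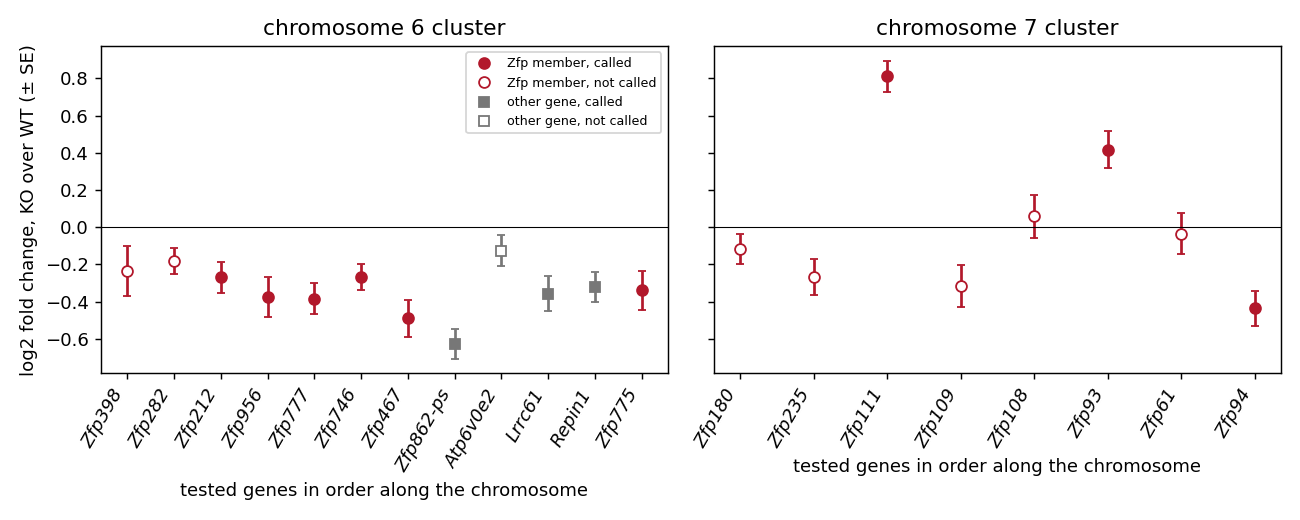
Log2 fold change, KO over WT, with its SE for the tested genes in order along the chromosome 6 run (left) and the chromosome 7 run (right), with Zfp members as circles, other genes as squares and filled symbols for those that passed. All 12 genes on the left lie below 0, whereas the members on the right run from -0.43 (Zfp94) to 0.81 (Zfp111).

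Of the members listed for RNA or ribosome binding, with mean levels from 14.7 to 634 CPM, 1 of 10 tested was higher in KO cells, near the 13.5% of all tested genes, with 0 lower (16.9% of all) and a median log2 fold change of -0.06. The member that rose was Zfp106, an RNA-binding protein needed to maintain motor neurons in mice, with 684, 663 and 798 CPM in KO cells, against 532, 588 and 539 CPM in WT cells. It was above WT in all KO libraries, at 0.37 ± 0.09 on the log2 scale (SE, limma adjusted p = 0.0150), although the call was lost without WT replicate 3 (adjusted p = 0.0594). Zfp106 lies on chromosome 2, where 58.3% of all tested genes were higher in KO cells and the median log2 fold change was 0.34. Zfp36, which encodes tristetraprolin and promotes decay of cytokine mRNAs with AU-rich elements, had 20.7, 23.7 and 21.3 CPM in KO cells, against 22.7, 28.1 and 34.0 CPM in WT cells. Its values overlapped and it did not pass, at a log2 fold change of -0.35 (limma adjusted p = 0.1).

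Of 5 genes listed for inflammatory signalling, 4 were tested and Zfp64 alone passed (25%, against 30.4% of all tested genes). Zfp91, an activator of noncanonical NF-kappaB signalling, is listed at 0 in all 6 libraries, and its span overlaps the gene Cntf on the same strand. Of 8 chromatin or promoter-binding members, Zfp516, an activator of brown fat genes, was higher and Zfp462 was lower (25% passed, also near 30.4%). None of 6 tested members for imprinting and retroelement silencing passed (against 30.4% of all tested genes), with a median log2 fold change of 0.10 (-0.13 without WT replicate 1). Among them Zfp809, which recognises the primer binding site of murine leukaemia virus, had 29.0, 25.1 and 31.0 CPM in KO cells, against 16.7, 26.1 and 21.6 CPM in WT cells. WT replicate 2 overlapped the KO libraries, and the log2 fold change of 0.41 did not pass (limma adjusted p = 0.0839). It did pass in 6 of the 17 other settings, with adjusted p = 0.0419 after TMM rescaling, 0.0443 after rescaling by DESeq2 size factors, 0.0310 after quantile normalization, 0.0434 by edgeR, 0.0134 by DESeq2 and 0.0102 without WT replicate 2, and its adjusted p over all 17 ran from 0.0102 to 0.220. Zfp445, which protects imprints, was at -0.03 on the log2 scale (limma adjusted p = 0.922), and its partner in that role, Zfp57, is listed at 0 in all libraries. Of 6 lineage regulators of other cell types, Zfp467 alone was tested. Zfp42 and Zfp750 are listed at 0, and Zfp423, Zfp521 and Zfp536 had 0 to 3 reads per library.

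The KRAB corepressor machinery through which many members act was expressed in both genotypes. Trim28 had 345, 395 and 381 CPM in KO cells, against 412, 349 and 361 CPM in WT cells, with overlapping values and a log2 fold change of 0.00 (limma adjusted p = 0.992). Of 18 tested genes of this list, 3 were higher in KO cells (16.7%, near the 13.5% of all tested genes) and 0 lower, with a median log2 fold change of -0.01, and 0 passed after quantile normalization. Those 3, the DNA methylation cofactor Uhrf1 (0.25), the HUSH subunit Pphln1 (0.28) and the deacetylase Hdac1 (0.19), had limma adjusted p values of 0.0306, 0.0407 and 0.0461, and each lost its call when any 1 KO library or WT replicate 3 was left out.

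Other C2H2 families, the Zbtb, Zscan, Zkscan, Klf, Zfhx and Ikzf genes, had 67 of 92 listed genes tested. Of these, 8 were higher and 9 lower in KO cells (25.4% passed, near the 30.4% of all tested genes), with a median log2 fold change of -0.10 and a median within-genotype SD of 0.117. Klf genes accounted for 5 of the 8 that were higher, out of 10 tested (50%, against 13.5% of all tested genes), and 3 to 5 were higher under the other settings. Of 3 Zfhx genes tested, 2 were lower, with a median log2 fold change of -0.98, and 2 were lower under every other setting. Their lowest mean was 2.53 CPM, a level at which a row can pass the level rule through 1 genotype alone.

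Sequence shared with other genes limits some of these values, since reads from near-identical copies can be split or dropped in counting. More than 10% of 75-base windows were shared with transcripts of other genes in 41 members, of which 5 passed, and no window was shared in 177, of which 29 passed, or 12.2% and 16.4% against 30.4% of all tested genes. The annotated spans of 106 members overlap another gene, and 11 of them passed (10.4%).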

How the data were processed

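Paired-end mRNA libraries came from 3 KO and 3 WT plates of RAW 264.7 cells, per the labels' protocols. The submitters' processing notes name STAR 2.6.0a, SAMtools, Picard, FastQC and Trim Galore, with the build mm10, and duplicates had been removed, per the file headers. Which counter and annotation were used, and whether strand was, is not stated there. Expression values are the authors' deposited CPM for 24848 gene symbols, 7683 of them at 0 in all libraries.

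CPM were whole multiples of a read in 100% of values (tolerance 0.01 of a read), which gave back whole reads. Floors of 3 reads (0.0426 to 0.0594 CPM) and intervals cover counting error only. Rows at 1 CPM or more in 3 or more libraries entered a limma 3.58.1 fit (R 4.3.3, eBayes with trend, no covariates) of log2(CPM + 0.5), whose added 0.5 understates fold changes of low genes. Benjamini-Hochberg adjustment ran over all 10614 tested genes, with a threshold of 0.05. Alternatives were DESeq2 1.42.0 and edgeR 4.0.16 on those whole reads, other pseudocounts, filters and scalings, a replicate block, and each library left out. The fit was tested on simulated data.

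Gene positions and coding sequences came from GENCODE M21 (mm10), matched by symbol for 385 of 386 Zfp rows. Proteins were translated from the longest coding sequence, since no protein table was at hand. Members and lists were chosen with earlier results of these data known. Genes named are those present in 1 genotype only, the 8 largest changes in each direction among members that passed without overlap, the 5 highest levels, members at the edge of the level rule, up to 4 members of each list, and Apobec1. Other genes named, and both runs on chromosomes 6 and 7, were chosen after their values were seen.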

Additional observations from a re-analysis of the deposited data

How the results depend on the processing

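Over 17 other settings, all 10 members higher and all 29 lower in KO cells kept their direction. edgeR on recovered reads called 40 members (12 higher, 28 lower) and DESeq2 45 (13 higher, 32 lower). With no filter on low values 17 members were lower, and after quantile normalization 24 were higher and 14 lower; the cause was not tested. The members' median log2 fold change, -0.05, became 0.06 after quantile normalization and 0.04 without WT replicate 2. With 1 library left out in turn, 18 to 57 members passed, 6 to 19 higher and 12 to 45 lower, and over all genes 1973 to 3761 passed, 957 to 1662 higher and 1016 to 2099 lower. Members expressed in only 1 genotype numbered 1 with absence set at under 0.5 or under 0.1 CPM. Same-numbered KO and WT libraries deviated apart from each other, with correlations of -0.25, -0.64 and -0.17, so the shared numbers showed no pairing. Some differently numbered libraries deviated together: KO replicate 2 with WT replicate 1 (0.58), KO replicate 3 with WT replicate 2 (0.61) and KO replicate 1 with WT replicate 3 (0.29). The other such correlations ran from -0.44 to 0.10. Deviations within a genotype sum to 0, so these values are not independent. A batch shared across numbers was not tested, and the fit has no term for it. With a replicate block, 18 members passed (7 higher, 11 lower) and 2009 of all genes (891 higher, 1118 lower). Depth limits members near 1 CPM, where a library held 37 to 100 reads (Zfp384 and Zfp433).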

Other observations

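Some Zfp rows below the level rule also had no overlap between genotypes; they were picked after their values were seen and carry no test. Zfp599 had 3, 2 and 7 reads in KO libraries, against 51, 54 and 49 reads in WT libraries. Zfp354c had 0, 1 and 2 reads in KO libraries, against 12, 40 and 29 in WT libraries, and Zfp979 had 5, 0 and 1 in KO libraries, against 15, 43 and 28 in WT libraries. In all 3 rows every KO library lay below every WT library, which follows from their choice. Also lower in KO libraries without overlap were Zfp14, Zfp9, Zfp389, Zfp541 and Zfp651. Only Zfp366, Zfp641 and Zfp990 were higher in KO libraries without overlap. Zfp366 and Zfp641 had 0 to 5 reads per library. Zfp990 had 9, 7 and 12 reads in KO libraries, against 5, 4 and 3 in WT libraries. Among all tested genes, which lie above the level rule, 46.4% had no overlap.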
